A study of Homo sapiens with 11 samples.

Results

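Described here are 7 genes of glycerol and water handling in human breast cancer cells grown as tumours in mice: the channel genes AQP9, AQP3, AQP1 and AQP11, the glycerol kinase gene GK, and the glycerol 3-phosphate dehydrogenase genes GPD1L and GPD2. They were chosen by symbol, and all 7 were found among the 28152 gene symbols of the count table. AQP9 was chosen because it had the lowest log2 fold change of all 16653 tested genes under treatment, so the differences of the 7 members between the groups are given below as a description and without p-values. Adjusted p-values are given for other genes alone. RNA was sequenced from xenografts of BT474, a human breast cancer line labelled HR+/Her2+ and injected into the fourth mammary fat pad of female athymic nude mice that all carried an estradiol pellet of 0.72 mg made to last 90 days. The vehicle group (6 tumours) received mannitol in water and the evexomostat group (5 tumours) received Evexomostat (SDX-7320), an inhibitor of the enzyme methionine aminopeptidase 2, at 12 mpk. Both were injected under the skin every 4 days, and every library is labelled day 33. The labels describe 1 sample per replicate number and give no age of the animals, and athymic mice lack T cells but keep other blood and tissue cells.

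Aquaporins are membrane channels for water, and a subgroup, the aquaglyceroporins, also lets glycerol and other small uncharged solutes through. AQP9 and AQP3 belong to that subgroup. AQP9 is best known from liver cells, where it takes up glycerol, and from white blood cells, and it also carries urea. AQP1 is a classical water channel of red cells and capillaries, and AQP11 is a divergent member found on internal membranes. Glycerol that enters a cell is phosphorylated by glycerol kinase (GK). Glycerol 3-phosphate is either built into lipids or exchanged with dihydroxyacetone phosphate by a dehydrogenase in the cytosol (GPD1, with GPD1L as its relative) and another on the mitochondrial inner membrane (GPD2), which together shuttle electrons into mitochondria.

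The sequence upstream of AQP9 differed in composition from that of the other members matched, and it is shown with that of AQP3, the other aquaglyceroporin of the set. The windows run from 250 bases before to 50 bases after an annotated start and were taken from RefSeq (GRCh38.p14), at chr15:58137919-58138218 on the plus strand for AQP9 and chr9:33447544-33447843 on the minus strand for AQP3. The reads were aligned to another build (GRCh37). Capitals mark matches to any of 9 motifs listed after the sequences.
AQP9: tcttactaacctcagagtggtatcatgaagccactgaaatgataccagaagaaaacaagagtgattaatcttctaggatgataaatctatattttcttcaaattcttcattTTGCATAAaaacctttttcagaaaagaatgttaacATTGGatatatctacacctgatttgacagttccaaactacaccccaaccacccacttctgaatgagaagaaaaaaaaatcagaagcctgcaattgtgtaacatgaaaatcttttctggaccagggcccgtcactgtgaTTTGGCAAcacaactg
AQP3: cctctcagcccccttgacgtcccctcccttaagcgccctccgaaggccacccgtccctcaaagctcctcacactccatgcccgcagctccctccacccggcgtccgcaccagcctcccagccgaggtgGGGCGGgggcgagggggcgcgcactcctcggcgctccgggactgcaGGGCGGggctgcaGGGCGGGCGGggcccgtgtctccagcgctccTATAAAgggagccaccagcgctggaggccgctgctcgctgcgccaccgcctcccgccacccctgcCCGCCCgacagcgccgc
A sequence of this kind was found for 6 of the 7 members. GC content was 36% in the AQP9 window, with 1 CpG, and 5.34% of 35116 promoters of the same length had less. RefSeq gives AQP9 another start nearby, whose window held 40.7% GC and 6 CpGs. AQP3 had 75.3% GC and 31 CpGs, GK 74.3% and 37, GPD1L 77.7% and 36, and AQP1 65.3% and 10, while the windows of the GPD2 starts had 59.3% and 76.7%. Of the 6 members matched, AQP9 had the lowest GC content in each of its windows.

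The motifs were searched on both strands by their letters. The AQP9 window held TTGCNNAA (the C/EBP motif, in 10.5% of all promoters) at -139 and, on the minus strand, at 35. It also held CCAAT on the minus strand at -104 (34.6% of all promoters), with positions counted from the start as base 1. The AQP3 window held TATAAA at -32 (11.5% of all promoters) and GGGCGG (the GC box, 45.0%) at -122, -76, -63, -59 and, on the minus strand, 34. The matches at -63 and -59 overlap. The letters ACGTG (hypoxia response core, 21.4%), TGANTCA (AP-1, 7.71%) and TGTTTAC (FOXO, 3.42%), and the letters of the NF-kB motif (1.91%) and of the direct repeat bound by PPAR (0.0228%), were in neither printed window. These are matches of letters and not measured binding sites.

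Library totals ranged from 22808033 to 39249329 counts, at which 3 counts correspond to 0.0764 to 0.132 RPM (counting error only). Levels are CPM, counts scaled by library total and TMM factor. Vehicle replicate 001 stood apart, with a TMM factor of 0.86 against 0.96 to 1.04 in the other vehicle libraries. Summed over 13 skeletal muscle markers, evexomostat replicates 005 (482 RPM), 004 (66.1) and 003 (32.5) lay above all vehicle tumours (7.31 to 25.5), while evexomostat replicates 007 (12.0) and 002 (9.13) lay within their range. Several markers of the labelled line were low in every library, against the label HR+/Her2+, so the levels below are those of libraries labelled BT474: ERBB2 ranged from 23.0 to 65.3 RPM, ESR1 from 0.0375 to 0.597, PGR from 0 to 0.144 and GATA3 from 2.90 to 11.05, whereas KRT8 ranged from 164 to 537. All 13 markers of the line summed to 446 to 918 RPM under vehicle and 582 to 782 under evexomostat. Most of that sum was KRT8, KRT18 (98.7 to 196 RPM) and XBP1 (104 to 193). The rest of the list was low, with GRB7 at 0.0862 to 0.627 RPM, FOXA1 at 0.562 to 1.88 and KRT19 at 0 to 1.60. EPCAM was at 0.316 to 4.64 RPM, CDH1 at 0.140 to 1.39 and TFF1 at 0 to 0.208. The 8 adipocyte markers summed to 10.7 to 18.1 and 10.4 to 20.8 RPM, with ADIPOQ at 0, and the 8 keratinocyte markers to 48.02 to 292 and 33.0 to 219 RPM, with KRT1 at 0. Across all 16653 tested genes, 101 (0.606%) passed an adjusted p of 0.05 with the quasi-likelihood method of edgeR, of which 28.7% were higher under evexomostat (40% with upper quartile scaling, 58.1% and 55.9% with limma-trend on RPM at pseudocounts of 1 and 0.1). The median log2 fold change of all tested genes was -0.0388, and it moved up by 0.114 and 0.137 in those RPM comparisons.

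AQP9, the aquaglyceroporin of liver and white blood cells, was detected in every tumour, at 14 to 2958 counts. In the vehicle tumours its level was 6.24 CPM in replicate 003, 6.43 in 006, 7.42 in 001, 12.3 in 004, 47.7 in 007 and 79.6 in 005. In the evexomostat tumours it was 0.435 CPM in replicate 007, 0.993 in 002, 1.62 in 003, 1.85 in 004 and 2.05 in 005. The groups did not overlap, and the lowest vehicle tumour was 3.04-fold above the highest evexomostat tumour. The mean of the vehicle tumours was 26.6 ± 30.5 CPM (SD, n = 6), and that of the evexomostat tumours 1.39 ± 0.665 CPM (SD, n = 5). The log2 fold change was -4.26 (SE 0.80), or 19.2-fold lower. The SE of a fold change is here its absolute value divided by the square root of the edgeR F statistic. In the authors' deposited table it is -4.16, with mean levels of 25.9 and 1.45 RPM.

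Vehicle replicates 005 and 007 set most of the vehicle mean of AQP9, since they held 79.7% of the summed level of the 6 vehicle tumours. Within vehicle the highest tumour was 12.8-fold above the lowest, and within evexomostat 4.71-fold. The SD of log2 CPM among vehicle tumours was 1.59, rank 154 of 16653 tested genes (median 0.42). Among evexomostat tumours it was 0.86, rank 347 (median 0.23). AQP9 was thus among the more variable genes in both groups, and the fold change was -3.53 without vehicle replicate 005 and -4.02 without vehicle replicate 007.

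**Figure D1:**
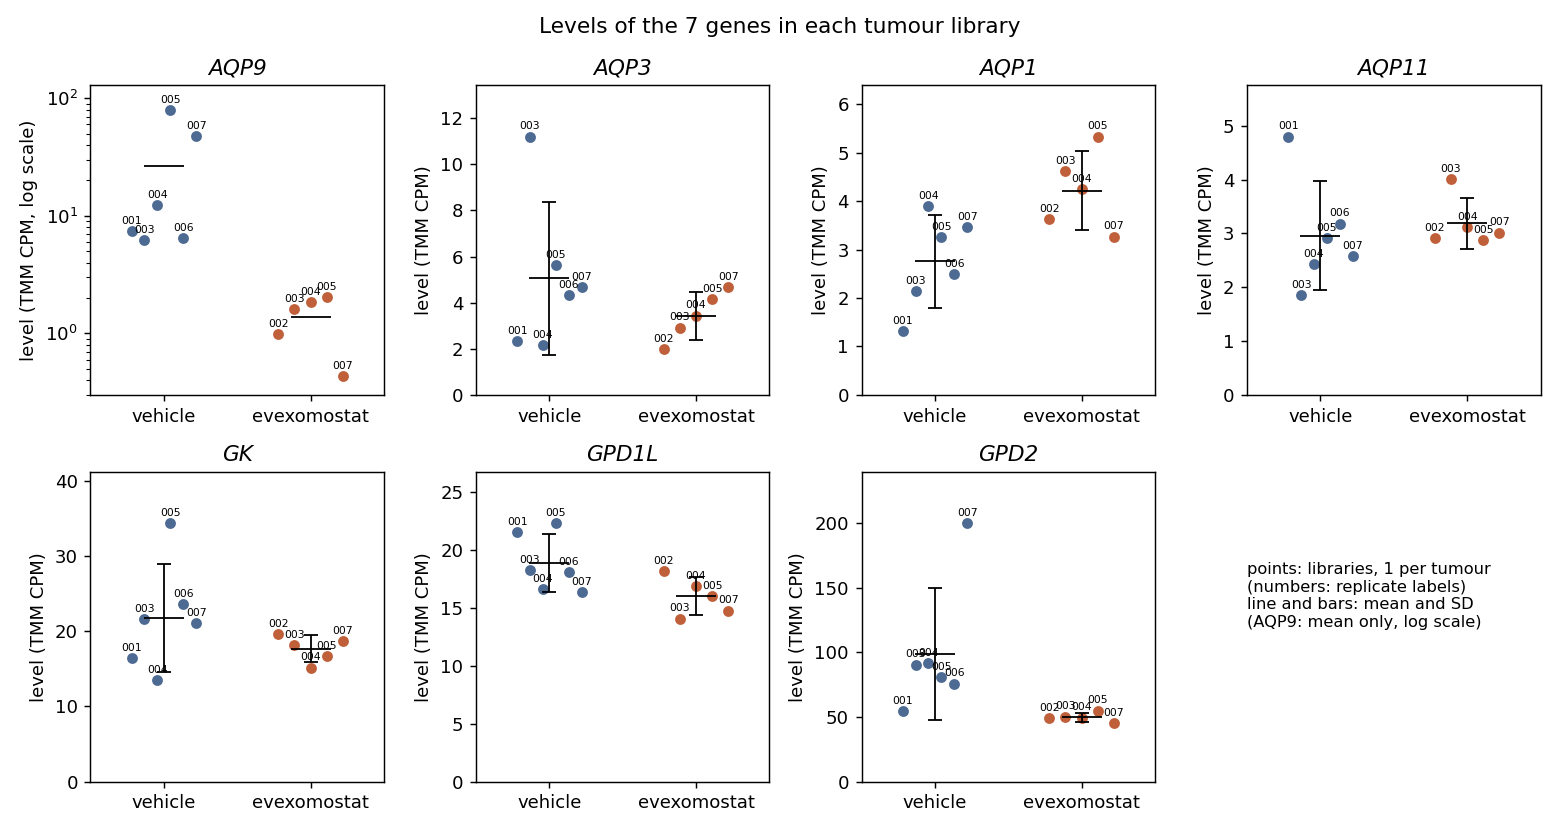
Level of each of the 7 genes (TMM CPM, vertical axis, logarithmic for AQP9 and linear from 0 for the others) in 6 vehicle and 5 evexomostat libraries, with replicate labels beside the points, group means as lines and SD as bars (mean only for AQP9). AQP9 is the gene whose groups are fully separated, GPD2 is high in vehicle replicate 007 at 199.9 CPM, and AQP3 is high in vehicle replicate 003 at 11.2 CPM.

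As a description, 1 of 7 members (AQP9) was called lower by edgeR, against 0.432% of all tested genes, and 1 of 7 had groups that did not overlap with evexomostat lower, against 1.64% (2.97% in either direction). Because AQP9 was chosen from this comparison, nothing is read from those counts. The count of members past the threshold became 0 without any 1 of vehicle replicates 004 and 007 or evexomostat replicates 002, 003, 004, 005 and 007, where the log2 fold change of AQP9 stayed between -4.45 and -4.02. It became 2 (AQP9 and GPD2) without vehicle replicate 001, without vehicle replicate 001 and evexomostat replicate 005 together, with DESeq2, with limma-voom quality weights, and in the 8 libraries with shared replicate numbers without a block. In those settings 431 to 1059 of all tested genes passed, against 101 in edgeR with all libraries. The count of members was 0 with limma-voom, limma-trend on log2(RPM + 1) and the replicate block. All 7 members kept the direction of their fold change in all 23 alternatives.

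AQP9 is also made by neutrophils, which a mouse tumour can hold, and fewer cells of a type and less RNA per cell cannot be told apart in these bulk samples. Of 14 neutrophil and macrophage markers, 10 were above 3 counts in every library, while FPR1 and AIF1 had at most 3 counts in any. Their summed level was 143 to 249.5 RPM under vehicle and 109.9 to 203 under evexomostat, ranges that overlapped. Most of that sum came from S100A9 (mean 59.4 RPM over all libraries), CD68 (38.8), LYZ (27.7), ITGAM (23.8) and S100A8 (16.3). The means of PTPRC, CXCR2 and FCER1G were 2.22, 0.233 and 0.200 RPM, so the sum says little about these markers. Of 8 hepatocyte markers 2 were above 3 counts in every library (sums 8.25 to 15.5 and 4.86 to 16.7 RPM), and APOA1, APOB, TTR and HNF4A had at most 3 counts in any. How mouse reads were handled is not given in the sources used here, and the part of host cells in the AQP9 difference was not tested. The summed markers and AQP9, each centred on its group mean on the log2 scale, were also correlated over the 11 tumours. The value was -0.40 for neutrophil and macrophage markers, -0.14 for hepatocyte markers and 0.50 for muscle markers, the highest of the 8 marker lists. The other lists lay between -0.12 and 0.21. The 3 evexomostat tumours highest in muscle markers were also the 3 highest of their group in AQP9. The AQP9 fold change was -4.45 without evexomostat replicate 005, the library highest in muscle markers.

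**Figure D2:**
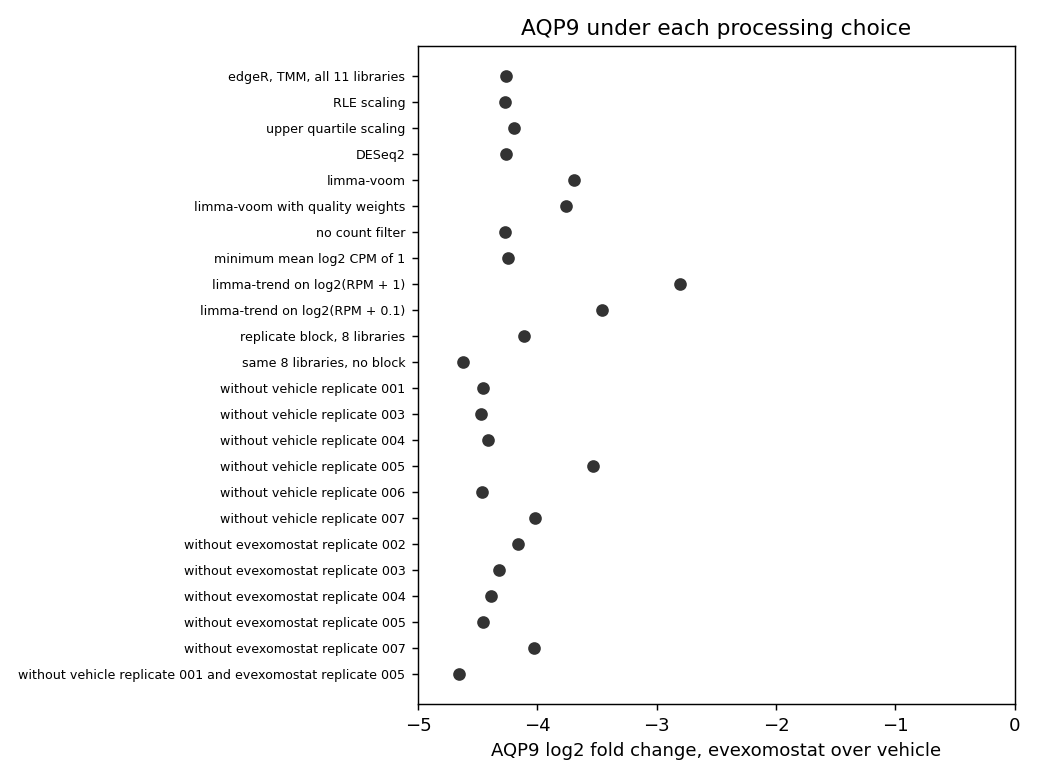
AQP9 log2 fold change of evexomostat over vehicle (horizontal axis) in the edgeR comparison and in each of 23 alternatives (rows), 1 point per row. Every value is negative, from -4.66 to -2.81, and the value nearest 0 is that of limma-trend on log2(RPM + 1).

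AQP3, the other aquaglyceroporin among the members, is a glycerol channel of epithelia such as skin and kidney. It ranged from 2.15 CPM (vehicle replicate 004) over a median of 4.50 to 11.2 CPM (vehicle replicate 003) under vehicle. Under evexomostat it was 1.99 CPM in replicate 002, 2.92 in 003, 3.44 in 004, 4.14 in 005 and 4.66 in 007. The groups overlapped, with means of 5.05 ± 3.31 (SD, n = 6) and 3.43 ± 1.05 CPM (SD, n = 5) and a log2 fold change of -0.56 (SE 0.40). The tumour highest in AQP3 was the lowest vehicle tumour in AQP9.

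AQP1, the water channel of red cells and capillary endothelium, had the opposite sign. Vehicle tumours ranged from 1.31 CPM (replicate 001) over a median of 2.88 to 3.89 CPM (replicate 004), and evexomostat tumours were at 3.27 CPM in replicate 007, 3.63 in 002, 4.24 in 004, 4.62 in 003 and 5.33 in 005. The log2 fold change was 0.61 (SE 0.27), and it was 0.47 without vehicle replicate 001, 0.51 without evexomostat replicate 005 and 0.36 without both. The 3 evexomostat tumours highest in AQP1 (005, 003 and 004) were those whose muscle markers exceeded every vehicle tumour, and the part of muscle in the AQP1 levels was not tested. Vehicle replicates 004 and 007 lay within the range of the evexomostat tumours. Of 8 endothelial markers, 4 were above 3 counts in every library and CDH5, a defining one, had at most 3 counts in any. Their sums were 11.6 to 24.4 RPM under vehicle and 12.0 to 16.9 under evexomostat, and their part in the AQP1 levels was not tested. The 7 red cell markers summed to at most 0.658 RPM.

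AQP11, the channel of internal membranes, was nearly level between the groups. Vehicle tumours ranged from 1.86 CPM over a median of 2.74 to 4.80 CPM in replicate 001, and evexomostat tumours were at 2.88 CPM in replicate 005, 2.92 in 002, 3.02 in 007, 3.12 in 004 and 4.01 in 003. The log2 fold change was 0.11 (SE 0.24), 0.00768 without vehicle replicate 003 and 0.30 without vehicle replicate 001.

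GK, which phosphorylates glycerol, ranged from 13.5 CPM (vehicle replicate 004) over a median of 21.3 to 34.3 CPM (vehicle replicate 005) under vehicle. Under evexomostat it was 15.1 CPM in replicate 004, 16.7 in 005, 18.2 in 003, 18.7 in 007 and 19.6 in 002. The evexomostat range lay inside the vehicle range (log2 fold change -0.30, SE 0.21). GK and AQP9 were both highest in vehicle replicate 005. GK has processed copies in the genome, so reads could be shared with them, and the copy GK3P listed in the table had 1 to 8 counts per library, 0.846% of the total of GK.

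GPD2, the mitochondrial glycerol 3-phosphate dehydrogenase, had the lowest fold change of the members after AQP9. Its level was 54.8 CPM in vehicle replicate 001, 75.9 in 006, 80.9 in 005, 90.6 in 003, 91.5 in 004 and 199.9 in 007. Under evexomostat it was 45.1 CPM in replicate 007, 49.1 in 002, 49.6 in 004, 50.3 in 003 and 55.0 in 005. All vehicle tumours but 1 lay above every evexomostat tumour, and that one, replicate 001, lay just below evexomostat replicate 005. The means were 98.9 ± 51.2 (SD, n = 6) and 49.8 ± 3.51 CPM (SD, n = 5), and the log2 fold change was -0.99 (SE 0.27). As a description, GPD2 did not pass the edgeR threshold with all 11 libraries, where 101 of all tested genes passed. It was called with them by DESeq2 (649 genes passed) and by limma-voom with quality weights (1059). In edgeR it was called without vehicle replicate 001 (865), at a log2 fold change of -1.11, without that library and evexomostat replicate 005 (431), and in the 8 libraries without a block (733). As the members were chosen with earlier results known, nothing is read from these calls. Without vehicle replicate 007, the highest tumour, the fold change was -0.66. The spread among evexomostat tumours was small, a coefficient of variation of 7.04% against 51.8% under vehicle.

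GPD1L, the relative of the cytosolic dehydrogenase, was steady among tumours. It ranged from 16.4 over a median of 18.2 to 22.3 CPM under vehicle, and was 14.1 CPM in evexomostat replicate 003, 14.8 in 007, 16.1 in 005, 16.9 in 004 and 18.2 in 002. The log2 fold change was -0.24 (SE 0.14), and the groups overlapped. Its SD of log2 CPM among vehicle tumours, 0.19, was below the median of all tested genes, 0.42.

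Between genes, levels were compared per kilobase of merged exons (GENCODE 29, an annotation other than the authors'). Under vehicle GPD2 averaged 13.8 ± 7.16 CPM per kb (SD, n = 6), AQP9 8.23 ± 9.43, GK 4.06 ± 1.34, GPD1L 3.93 ± 0.520, AQP3 1.71 ± 1.12, AQP11 1.24 ± 0.421 and AQP1 0.803 ± 0.278. Neighbours in that order differed by less than the larger of their SDs, apart from the steps from GPD1L to AQP3 and from AQP11 to AQP1. The rank of AQP9 rested on 2 tumours, since its lowest vehicle tumour was at 1.93 CPM per kb. Under evexomostat GPD2 averaged 6.96 ± 0.491 CPM per kb (SD, n = 5), GPD1L 3.33 ± 0.342, GK 3.30 ± 0.331, AQP11 1.33 ± 0.196, AQP1 1.23 ± 0.237, AQP3 1.16 ± 0.355 and AQP9 0.43 ± 0.206. There AQP9 was the lowest of the 7, GPD1L and GK did not differ beyond their spread, and neither did AQP11, AQP1 and AQP3.

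**Figure D3:**
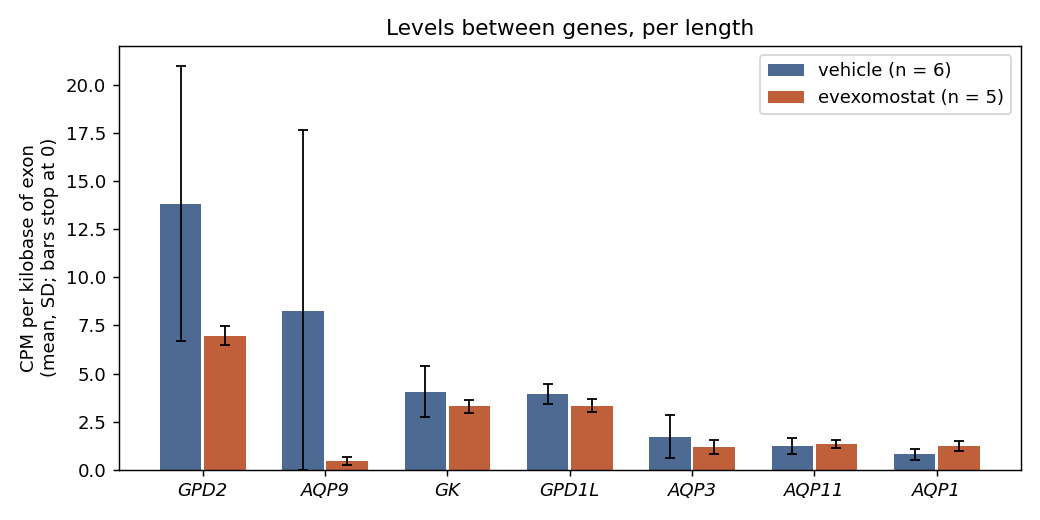
Mean level per kilobase of exon (CPM per kb, vertical axis from 0) of the 7 genes in vehicle (n = 6) and evexomostat (n = 5) tumours, with SD as bars. GPD2 is the highest in both groups, and AQP9 goes from rank 2 under vehicle, with a bar that reaches 0, to rank 7 under evexomostat.

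The other aquaporin genes were hardly expressed. Of 10 listed (MIP, AQP2, AQP4, AQP5, AQP6, AQP7, AQP8, AQP10, AQP12A and AQP12B), 9 did not pass the count filter, with at most 12 counts in any library (MIP), and AQP12B had no count. AQP7, the glycerol channel through which fat cells release glycerol, passed the filter at 3 to 21 counts. Vehicle tumours averaged 0.287 ± 0.145 CPM (SD, n = 6), evexomostat tumours 0.418 ± 0.272 CPM (SD, n = 5). The log2 fold change, 0.47 with an SE of 0.46, did not pass (adjusted p 0.726 in edgeR). It shares sequence with pseudogenes and its level is uncertain. The 4 aquaporin members were therefore the aquaporins expressed above this level in the tumours.

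Genes that act around glycerol were taken from 4 further lists, chosen like the members with earlier results of these data known. With the aquaporins these came to 67 genes, of which 49 were tested. None passed the threshold in the edgeR comparison made here, while 13 had an unadjusted p under 0.05 (2225 of 16653 over all genes). In the authors' deposited comparison (edgeR is named in their notes), HILPDA (adjusted p 0.00664), G0S2 (0.0167) and HIF1A (0.0387) lay below 0.05. The settings of that comparison are not given in the sources used here, and its count over all genes was not taken. With DESeq2 5 passed (649 of 16653 over all genes), with limma-voom 0 (89) and with limma-voom quality weights 8 (1059). In edgeR 6 passed without vehicle replicate 001, where 865 of all tested genes did. Without evexomostat replicate 007 0 passed, where 3 of all tested genes did. The median log2 fold change of the 49 was -0.23, with 32 below 0, against a median of -0.0388 and 55.4% below 0 over all tested genes.

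None of the enzymes that build glycerol 3-phosphate into lipids passed the threshold in edgeR, and 4 had an unadjusted p under 0.05 (2225 of 16653 over all genes). Of 18 listed, 16 were tested, 9 with a fold change below 0 (55.4% over all tested genes) and 7 above, with a median log2 fold change of -0.0762. LPIN1, a phosphatidate phosphatase, was at 82.4 ± 17.7 CPM under vehicle and 57.4 ± 9.02 under evexomostat (log2 fold change -0.52, SE 0.17, edgeR adjusted p 0.184). AGPAT4, an acyltransferase of this route, was at 33.9 ± 10.9 and 22.2 ± 3.05 CPM (log2 fold change -0.61, edgeR adjusted p 0.213). Its edgeR adjusted p was 0.0466 without vehicle replicate 001 and 0.410 without evexomostat replicate 007. GK5, a putative glycerol kinase, was at 42.9 ± 4.19 and 33.9 ± 4.59 CPM (log2 fold change -0.34, edgeR adjusted p 0.240). GPAT3, a glycerol 3-phosphate acyltransferase, had the largest fold change of the list and the opposite sign, at 0.813 ± 0.291 and 1.41 ± 0.486 CPM (log2 fold change 0.79, edgeR adjusted p 0.284). It is named after its values were seen. GPD1, the cytosolic partner of GPD2 and named for that role after its values were seen, was at 0.393 CPM under vehicle and 0.497 under evexomostat, with 2 to 28 counts per library (edgeR adjusted p 0.853). All groups overlapped.

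Genes of lipid droplets and lipolysis, the process that frees glycerol, did not pass the threshold in the edgeR comparison made here either. Of 16 listed, 14 were tested, 9 with a fold change below 0 (55.4% over all tested genes), with a median of -0.28. G0S2, an inhibitor of the main fat-cell lipase, ranged from 9.74 over a median of 20.2 to 38.1 CPM under vehicle and from 4.50 to 12.0 CPM under evexomostat (log2 fold change -1.38, SE 0.33, edgeR adjusted p 0.0781). Its adjusted p in edgeR was 0.0374 without vehicle replicate 001 and 0.232 without evexomostat replicate 007. HILPDA, a hypoxia-induced lipid droplet protein that inhibits the same lipase, ranged from 16.1 over 37.7 to 162 CPM under vehicle and from 13.5 to 18.7 CPM under evexomostat (log2 fold change -1.88, SE 0.49, edgeR adjusted p 0.105). Its edgeR adjusted p was 0.0372 without vehicle replicate 001 and 0.256 without evexomostat replicate 007. Its highest tumour, vehicle replicate 007, was also the highest in GPD2. PNPLA3, a lipid droplet hydrolase, was at 14.9 ± 1.48 and 11.5 ± 0.732 CPM (log2 fold change -0.38, edgeR adjusted p 0.214). PLIN2, a droplet coat protein, was the most abundant of the list, at 420 CPM under vehicle and 169 under evexomostat (edgeR adjusted p 0.250), and was chosen for mention after its values were seen.

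Carriers and enzymes of urea and lactate, other solutes linked to AQP9, were tested for 9 of 12 genes. The median log2 fold change was -0.28 and 7 of 9 were below 0 (55.4% over all tested genes). SLC16A7, a monocarboxylate carrier, was at 26.5 ± 7.60 and 17.1 ± 3.91 CPM (log2 fold change -0.63, edgeR adjusted p 0.241), and LDHA, which makes lactate, at 902 ± 245 and 619 ± 115 CPM (log2 fold change -0.54, edgeR adjusted p 0.258). SLC14A1, a urea transporter, was at 16.6 CPM in vehicle replicate 005 and between 0.110 and 1.60 CPM in the other vehicle tumours. Its log2 fold change, -2.05 with an SE of 1.06 (adjusted p 0.434 in edgeR), rested on that tumour and was 0.0771 without it. That tumour was also the one highest in AQP9.

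Transcription factors linked in the literature to aquaglyceroporin genes were tested for 9 of 11 genes, with a median log2 fold change of -0.38 and 7 of 9 below 0 (55.4% over all tested genes). HIF1A, the oxygen-regulated subunit of hypoxia-inducible factor 1, was at 164 ± 87.1 CPM under vehicle and 63.4 ± 15.8 under evexomostat (log2 fold change -1.37, SE 0.40, edgeR adjusted p 0.141). Its lowest tumour of all was vehicle replicate 001 at 34.2 CPM. Its edgeR adjusted p was 0.00873 without that library and 0.293 without evexomostat replicate 007. PPARA, a lipid-sensing receptor, was at 47.5 ± 15.5 and 27.6 ± 4.60 CPM (log2 fold change -0.78, edgeR adjusted p 0.156). Its edgeR adjusted p was 0.00903 without vehicle replicate 001 and 0.347 without evexomostat replicate 007. FOXO1, an insulin-regulated factor, was at 21.1 ± 6.11 and 13.4 ± 3.95 CPM (log2 fold change -0.66, edgeR adjusted p 0.228). HNF4A, which drives liver genes, had at most 3 counts in any library.

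**Figure D4:**
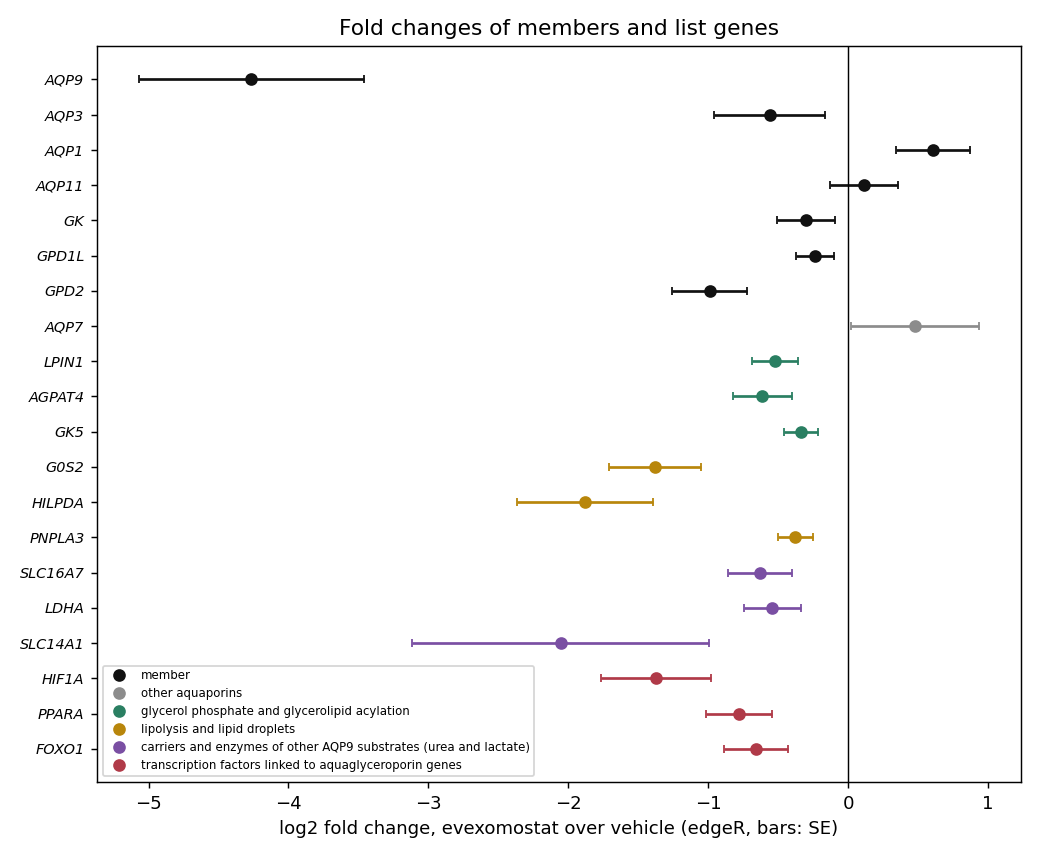
Log2 fold change of evexomostat over vehicle from edgeR (horizontal axis) for the 7 members and the named genes of the lists, coloured by list. Bars are SE, derived from the F statistic of edgeR. AQP9 lies at -4.26, well to the left of the next lowest points, SLC14A1 at -2.05 and HILPDA at -1.88, and AQP1, AQP11 and AQP7 lie to the right of 0.

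The tumours with more AQP9 than others of their group also had more of certain other genes. Levels were centred on their group mean (log2 CPM), so that the difference between the groups did not enter, and correlated with AQP9 over the 11 tumours. Among 13061 genes outside the members with a mean log2 CPM of at least 1, the 5 highest correlations were with PTGES (r = 0.94, rho = 0.91), which makes prostaglandin E2, ATP2A3 (r = 0.93, rho = 0.81), a calcium pump of the endoplasmic reticulum, CRYBG1 (r = 0.90, rho = 0.86), C19orf12 (r = 0.90, rho = 0.92) and CTSL (r = 0.88, rho = 0.95), a lysosomal protease. As the highest of so many genes over 11 tumours, these values are a description. The tumours share library totals and scaling between genes.

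Without vehicle replicates 005 and 007, the tumours farthest from the median of AQP9, and with the other 9 centred again on their group means, the correlations were lower: 0.79 for PTGES, 0.74 for ATP2A3, 0.83 for CRYBG1, 0.70 for C19orf12 and 0.67 for CTSL. These 9 tumours were among those the genes were picked on. PTGES was at 321 CPM in vehicle replicate 005 and 203 in 007, against 99.4 to 135 CPM in the other vehicle tumours and 45.6 to 76.5 under evexomostat. It was one of the 101 genes that passed the threshold (log2 fold change -1.42, SE 0.28, edgeR adjusted p 0.0462). Without evexomostat replicate 005, 0 genes lower under evexomostat passed in edgeR, so PTGES did not pass there. Only 1 lower gene passed without evexomostat replicate 002, and 1 without 007. The PTGES call was not followed through the other alternatives. ATP2A3 was at 112 CPM in vehicle replicate 005 and 46.8 in 007, against 16.5 to 18.0 in the other vehicle tumours. It did not pass (log2 fold change -1.02, edgeR adjusted p 0.417).

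**Figure D5:**
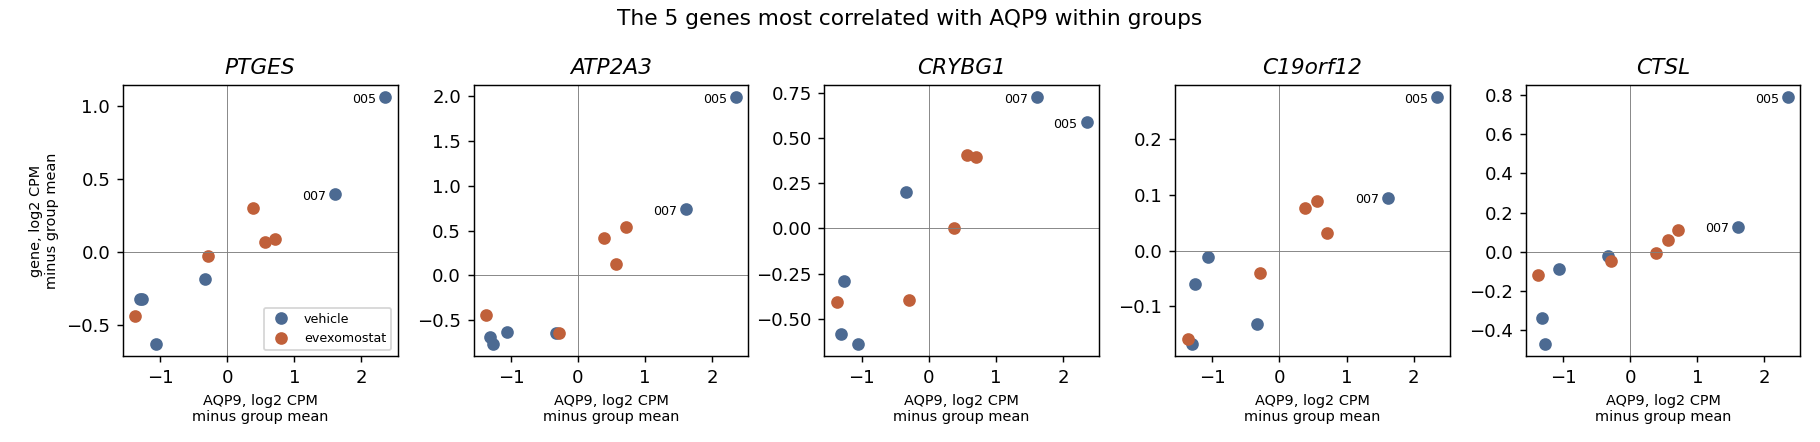
Log2 CPM minus the group mean of AQP9 (horizontal axes) against the same for the 5 genes most correlated with it (vertical axes, 1 panel per gene), with 1 point per tumour coloured by group and vehicle replicates 005 and 007 labelled. In each panel those 2 vehicle tumours lie at the upper right, and r over the 11 tumours is 0.88 to 0.94.

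Among the members themselves, measured the same way over the 11 tumours, AQP9 correlated at 0.65 with AQP1, 0.51 with GPD2, 0.39 with GK, 0.16 with GPD1L, 0.0305 with AQP3 and -0.0338 with AQP11. Without vehicle replicates 005 and 007, and centred again, GK was at -0.59, so its positive value rested on those tumours. GPD2 was then at 0.37, AQP1 at 0.61 and AQP3 at -0.33. AQP1 thus had a positive correlation with AQP9 within groups and the opposite sign between them (log2 fold changes of 0.61 and -4.26). Muscle markers were high in the same evexomostat tumours as both genes, and the part of muscle in this correlation was not tested.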

How the data were processed

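Total RNA of 11 xenograft tumours was sequenced as paired reads, per the labels' protocols. The submitters' processing notes name bcl2fastq 2.17, STAR 2.7.5c, featureCounts (Subread), edgeR and the build GRCh37 (hg19). The order of steps, settings, annotation, use of strand and treatment of mouse reads are not given in the sources used here. The authors deposited raw gene counts, RPM values, which equal counts divided by the column total on that scale, and a comparison table with log2 fold changes, p-values and group mean signal in RPM, per the file headers.

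Groups came from sample titles, and count columns were matched through the sample descriptions; 0 columns lacked a sample. No pair of libraries agreed within sampling noise (lowest chi-square per degree of freedom 15.5 over 55 pairs). Where tumours came from separate animals is not stated sample by sample, so p-values measure only the spread between these samples. Raw counts were filtered with filterByExpr (count minimum 10, total minimum 15), scaled with TMM and tested with the quasi-likelihood test of edgeR 4.0.16 (R 4.3.3), evexomostat against vehicle, with Benjamini-Hochberg adjustment over 16653 genes and a threshold of 0.05. On simulated data edgeR recovered 80.5% of 200 changed genes among 16653, with 4.73% false calls. These percentages describe the simulated data alone and are not read as the sensitivity or error of the tumour comparison. In the tumours 101 genes passed with all libraries, 1 without evexomostat replicate 005 and 865 without vehicle replicate 001. Alternatives were other scalings, DESeq2 1.42.0, limma 3.58.1, other filters, RPM with pseudocounts of 1 and 0.1, a replicate block, and leaving libraries out.

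The members, the 5 pathway lists and the 8 marker lists were chosen with earlier results of these data known. From each pathway list the text names every tested gene past the threshold, up to 6, filled to at least 3 with the smallest p-values, where that many were tested; the 5 genes most correlated with AQP9 within groups were named too. GPAT3, GPD1 and PLIN2 fall outside this rule.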

Additional observations from a re-analysis of the deposited data

Results flagged for a closer look

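In 50 groups of 5 or 6 tumours (members, list genes and the genes most like AQP9), 7 had a highest or lowest sample that stood far from the others by Dixon's criterion. For normal and independent levels chance gives about 2.5. All 7 were highest samples on the linear CPM scale, and the genes are not independent, so no excess is read from the count. Among the members, GPD2 reached 199.9 CPM in vehicle replicate 007, the other vehicle tumours lying between 54.8 and 91.5 CPM, and AQP11 at 4.01 CPM in evexomostat replicate 003 against 2.88 to 3.12. In the same vehicle tumour HILPDA, the lipid droplet protein, reached 162 CPM (others 16.1 to 53.0). LPIN1, the phosphatidate phosphatase, was at 73.3 CPM in evexomostat replicate 002 against 52.2 to 55.6. In vehicle replicate 005, the tumour highest in AQP9, the urea transporter SLC14A1 was at 16.6 CPM against 0.110 to 1.60. ATP2A3 was there at 112 CPM against 16.5 to 46.8, and CTSL at 1198 CPM against 501 to 758. ATP2A3 and CTSL had been picked for their likeness to AQP9, so their high level in that tumour is no separate observation.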

How the results depend on the processing

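All 7 members kept the sign of their fold change in the 23 alternatives. The 101 genes past the threshold became 649 with DESeq2, 1059 with limma-voom quality weights, 733 in the 8 libraries with shared replicate numbers without a block, 431 without vehicle replicate 001 and evexomostat replicate 005, and 1 to 865 without 1 library (1 without evexomostat replicate 005, 865 without vehicle replicate 001). As a description, since AQP9 was chosen from this comparison, its log2 fold change was called in 13 alternatives. It was not with limma-voom (-3.69), limma-trend on log2(RPM + 1) (-2.81) or the replicate block (-4.11), and it ranged from -4.47 to -3.53 without 1 library, called in 4 of those 11 fits; without both vehicle replicate 001 and evexomostat replicate 005 it was -4.66. The 0 pathway genes past the threshold became 5 with DESeq2, 8 with quality weights, 3 with the replicate block, 8 in the same 8 libraries without the block, 3 without both named libraries and 0 to 6 without 1 library. The SLC14A1 fold change ranged from -2.57 to 0.0771 without 1 library, changing sign without vehicle replicate 005. The cause of these changes was not tested. With the replicate block 107 genes passed. Same-numbered tumours did not deviate together (correlations -0.27, 0.0664, 0.0489 and -0.0998), so the numbers were not taken as pairs. The correlations of AQP9 with its 5 most similar genes lay between 0.82 and 0.95 under 13 alternatives chosen after seeing the data. Genes at a few counts, such as AQP7, are limited by depth.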

Other observations

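The genes next to the members on the chromosome were also read. AQP9 lies on chromosome 15 between ALDH1A2, which makes retinoic acid, and LIPC, the hepatic lipase gene. ALDH1A2 averaged 0.755 ± 0.749 CPM in the vehicle tumours (SD, n = 6) and 0.298 ± 0.139 in the evexomostat tumours (SD, n = 5), with a fold change on the log2 scale of -1.34 (adjusted p 0.419 in edgeR), and LIPC had 0 to 5 counts per library. Beside GPD2 on chromosome 2 lies NR4A2, a nuclear receptor, at 9.01 ± 5.60 CPM under vehicle and 4.67 ± 0.583 under evexomostat (log2 fold change -0.95, adjusted p 0.250 in edgeR). Beside AQP3 on chromosome 9, NOL6, a nucleolar protein, was at 99.0 ± 19.9 and 122.7 ± 15.3 CPM (log2 fold change 0.31, adjusted p 0.441 in edgeR). None of these neighbours passed the threshold.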
